A study of Mus musculus with 4 samples.

Results

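The cells described here are the tumour CD8 T cells in which granzyme K or KLRG1 transcripts were found without the exhaustion receptor TIM-3. They were chosen from the measured values. A cell of either tumour library was inside the gate when it had a value of Cd8a or Cd8b1, a value of Gzmk or Klrg1, no value of Havcr2, and values of fewer than 2 of the cycle genes Mki67, Top2a and Birc5. The gate held 728 of 3998 tumour CD8 cells, in a table of 6965 cells. The minus library gave 160 of 1251 CD8 cells and the plus library 568 of 2747. What the gate used (Gzmk, Klrg1, Havcr2, the CD8 genes and the cycle genes) is given as a description, and every comparison of gate cells with other cells of the same library is a description as well.

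Granzyme K is a serine protease stored in the granules of cytotoxic lymphocytes, and in tumours it marks CD8 cells regarded as effector-memory or pre-exhausted cells. KLRG1 is an inhibitory lectin-like receptor on short-lived effector CD8 cells, which circulate through blood and spleen and depend on the factors T-bet and Zeb2. TIM-3, encoded by Havcr2, marks the terminally exhausted cells that chronic antigen exposure produces in tumours. CD137, also called 4-1BB and encoded by Tnfrsf9, is displayed by activated CD8 cells for a limited time and costimulates them.

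The cells came from C57BL/6 recipients irradiated with 8 Gy and given marrow of Cd4cre Cd137fl/fl ROSA26tomato and of Cd137fl/fl ROSA26tomato donors. The loxP-flanked Cd137 gene was thus present in both donors, and Cre under the Cd4 promoter, which is active in T cell development, was present in 1 of them. The recipients carried subcutaneous B16K1 tumours, derived from the B16 mouse melanoma, and CD8 cells of tumour and spleen were taken on day 21 and separated by tomato fluorescence into a CD137 minus and a CD137 plus fraction. Cells of 7 mice were pooled in each of the 4 libraries, and the table assigns no cell to a mouse, so a clone or a single mouse could carry a value. Loss of CD137 cannot be told apart from Cre or from the donor. The labels contradict each other on whether minus cells were tomato positive, so groups follow CD137 status alone.

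Each group was 1 library, so no difference below has a replicate error or a test. Shares of cells carry exact Clopper-Pearson 95% intervals, which cover counting error only. Levels are CPM, corrected counts summed over the cells of a population and scaled to 1e+06, and differences are log2 ratios with a pseudocount of 1 CPM. A gene counts as measured in a comparison when it reached 20 CPM and 5% of cells in 1 of the populations and had a value in both. Values are given for the minus library first and the plus library second. Gate cells had median totals of 4746 and 3492 corrected counts and 1539 and 1228 genes. The other CD8 cells had totals of 4865 and 3779, so the libraries differed more than the populations within a library. One barcode occurred in both tumour libraries, and 1 gate cell carried it.

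The targeted gene was examined first. Tnfrsf9 lies on chromosome 4 of mm10 from 150914562 to 150946102 on the plus strand. Minus gate cells had 46.8 CPM and plus gate cells 251 CPM, a log2 ratio of -2.40. In other tumour CD8 cells it was 59.6 and 467 CPM (-2.95). A value was found in 15.0% (9.85 to 21.5) of minus and 31.7% (27.9 to 35.7) of plus gate cells. The minus library thus had the lower level in both populations, in the direction of its label, but 24 of 160 gate cells still had a value. The deleted exons are not stated in the labels, and reads from the 5′ end of a transcript need not cover them. In the plus library fewer gate cells than other CD8 cells had a Tnfrsf9 value, 31.7% against 49.0% (46.8 to 51.1). Naive-like tumour CD8 cells, with Ccr7 but without Pdcd1 and Cd44, had a value in 2.09% (0.959 to 3.93) and 15.2% (12.2 to 18.6).

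The gate made up 12.8% (11.0 to 14.8) of tumour CD8 cells of the minus library and 20.7% (19.2 to 22.2) of those of the plus library. In spleen the same gate held 37 of 2444 minus CD8 cells, 1.51% (1.07 to 2.08), and 46 of 469 plus CD8 cells, 9.81% (7.27 to 12.9). The intervals of minus and plus did not overlap in either tissue, which covers counting error in these libraries and not variation between mice. With every cell drawn down to 2900 corrected counts, the tumour shares were 11.7% and 19.8%. Cells with Gzmk carried the tumour difference. A gate on Gzmk without Klrg1 as an alternative held 11.8% and 19.6%, whereas a gate on Klrg1 held 2.32% and 2.48%. Naive-like cells also had a Gzmk value more often in plus, 8.94% (6.64 to 11.7), than in minus, 2.78% (1.45 to 4.81). The part of such a library-wide difference in the gate shares was not tested, and thinning to one total does not address it. The Havcr2 criterion kept out 37 and 84 further cells and the cycle criterion 11 and 25.

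**Figure D1:**
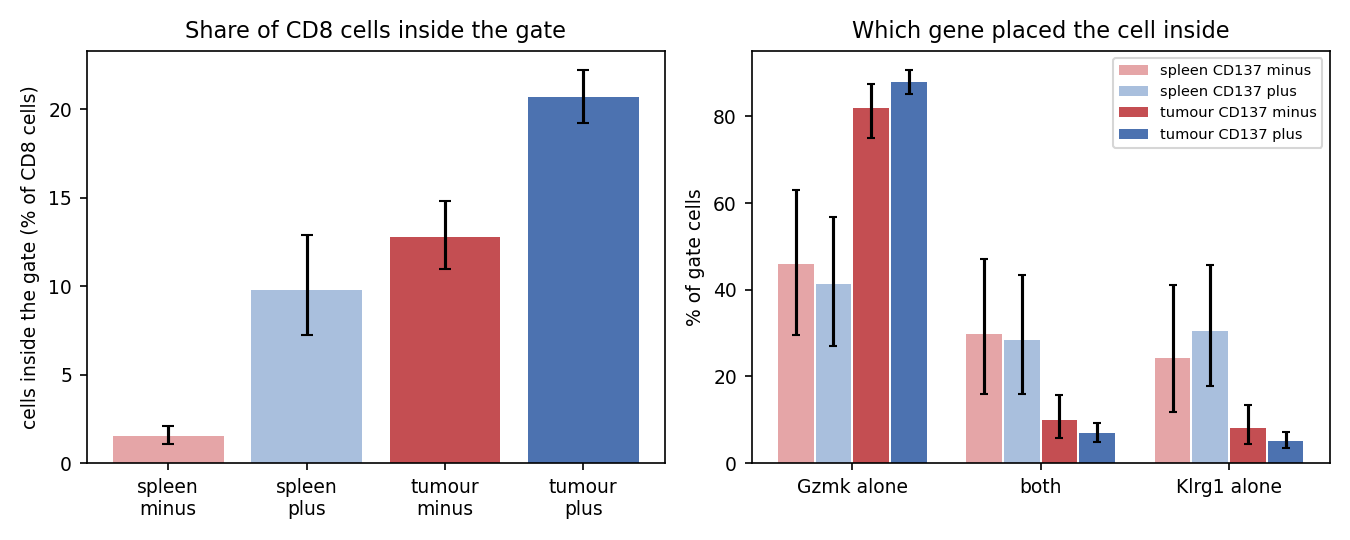
Left, share of CD8 cells inside the gate in each of the 4 libraries (percent). Right, share of gate cells with a value of Gzmk alone, of both genes and of Klrg1 alone. Bars are single libraries and error bars are exact 95% binomial intervals. Tumour plus (20.7%) stands above tumour minus (12.8%), and Gzmk alone makes up 81.9% and 88.0% of the tumour gate in minus and plus but 45.9% and 41.3% of the spleen gate.

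Most tumour gate cells were there by Gzmk alone, 131 of 160 and 500 of 568. Both genes were found in 16 and 39 cells and Klrg1 alone in 13 and 29. In spleen, by contrast, 54.1% (36.9 to 70.5) and 58.7% (43.2 to 73.0) of gate cells had Klrg1, against 18.1% (12.5 to 25) and 12% (9.42 to 14.9) in tumour. The intervals of spleen and tumour did not overlap in either fraction. A low background value can place a cell in the gate, since 57 and 174 of the Gzmk alone cells had a single corrected count. A naive-like reference, tumour CD8 cells with Ccr7 but without Pdcd1 and Cd44, had a Gzmk value in 2.78% (1.45 to 4.81) and 8.94% (6.64 to 11.7) of cells and a Klrg1 value in 0.696% and 1.52%, at median totals of 4768 and 3776.

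Granzyme A, the third marker of these cells and not part of the gate, followed the label in part. Gzma, which lies on chromosome 13 of mm10 from 113093825 to 113100981, near Gzmk (113171608 to 113225908) and on the same minus strand, was at 1033 and 774 CPM inside the gate. Other tumour CD8 cells had 74.8 and 74.7 CPM, so the log2 ratio was 3.77 and 3.36. A Gzma value was found in 28.1% (21.3 to 35.8) and 23.2% (19.8 to 26.9) of gate cells, against 4.03% (2.95 to 5.38) and 5.37% (4.46 to 6.40) of other CD8 cells. The naive-like reference had 3.48% (1.96 to 5.68) and 5.32% (3.57 to 7.60), close to the shares in other cells. Most reference cells are themselves counted among the other cells, so it is not an independent background. A melanoma reference held 0 cells in both tumour libraries. Most gate cells thus had no Gzma value, so the marker was found in a minority of the cells it is meant to mark.

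Compared with all other tumour CD8 cells, 81 of 5089 measured genes (1.59%) were higher inside the gate by a log2 ratio of 0.5 in both libraries, and 190 (3.73%) were lower. The median over all measured genes was 0.05 and -0.08. Gzma, Ccl5, Gzmb and Ccr2 stood furthest above, and Ccl1, Igfbp4 and Cd74 furthest below.

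Of the granule list, 3 of 13 measured genes were higher in both libraries and none was lower, with a median of 0.49 and 0.31. Beside Gzma these were Gzmb and Fasl. Gzmb, the granule protease that starts apoptosis in target cells, was at 405 and 582 CPM inside the gate and 82.8 and 177 CPM outside (2.28 and 1.71). A Gzmb value occurred in 43.8% (35.9 to 51.8) and 45.6% (41.4 to 49.8) of gate cells and in 10.5% and 20.4% of others. Fasl, a death ligand, was at 123 and 142 CPM inside and 70.2 and 99.7 CPM outside (0.81 and 0.51). Perforin was not among the higher genes. Prf1, the pore former that lets granzymes enter a target, was at 96.1 and 129 CPM inside and 100 and 163 CPM outside (-0.06 and -0.33). Nkg7, a granule membrane protein with a value in 99.4% and 98.9% of gate cells, was at 2946 and 3383 CPM against 1597 and 2424 CPM (0.88 and 0.48).

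Chemokine genes were split. Ccl5, a chemokine that memory and effector CD8 cells store ready for release, was at 12671 and 16353 CPM inside the gate and 2987 and 4436 CPM outside (2.08 and 1.88). Ccl4, an inflammatory chemokine, was higher too, at 604 and 1014 against 272 and 667 CPM (1.15 and 0.60). Lower members of the list were Ccl3, Xcl1, Ccl1 and Csf1, 4 of 11 measured, beside 2 higher. Xcl1, which attracts cross-presenting dendritic cells, was at 249 and 293 CPM inside and 542 and 754 CPM outside (-1.12 and -1.36). Ccl1, a ligand of CCR8, was at 5.20 and 8.66 CPM inside and 76.9 and 118 CPM outside (-3.65 and -3.62), and 5.59% and 8.77% of the other cells had a value. The direction of Ccl3 (-1.08 and -0.97) rested on the choice of comparison cells. Against cells that met every criterion but had neither Gzmk nor Klrg1 it was 0.14 and -0.15. Of 9 list genes measured in that comparison Ccl4 and Ccl5 were higher and Xcl1 alone was lower. Ccl1 and Csf1 were not called there. Fewer list genes passed the filter in that comparison than the 11 above, so a gene not called there need not have lost its difference. Over all genes that comparison had 133 of 4981 higher (2.67%) and 163 lower (3.27%). Ifng, the main effector cytokine of CD8 cells, was near the level of other cells, with 220 and 436 against 200 and 362 CPM (0.14 and 0.27).

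Of 16 measured homing and residency receptors, 3 were higher (Ccr2, Cxcr3, Itga4) and 2 lower (S1pr1, Ccr7), with a median of 0.42 and 0.30. Ccr2, a receptor for inflammatory chemokines, was at 27.3 and 37.5 CPM inside and 6.52 and 11.0 CPM outside (1.91 and 1.69). Cxcr3, which guides effector cells to sites of interferon response, was at 120 and 110 against 59.4 and 56.8 CPM (1.00 and 0.95). Itga4, an integrin chain for entry into inflamed tissue, was at 185 and 215 against 120 and 134 CPM (0.62 and 0.68), and 0.47 in the plus library with Ccr7 cells left out on both sides. S1pr1 was at 26.0 and 30.3 against 63.9 and 46.8 CPM (-1.27 and -0.61). In the plus library it was 0.31 when the gate required Klrg1. With either Gzmk or Klrg1 but Pdcd1 at 0 it was 0.04 there. Cxcr6, a receptor of tissue-resident cells, was at 317 and 318 CPM against 222 and 315 CPM (0.51 and 0.01) and was not called.

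Interferon response genes were higher as a list, 6 of 9 measured members with none lower and a median of 0.91 and 0.72. Isg15, a ubiquitin-like protein, was at 278 and 254 CPM inside and 110 and 133 CPM outside (1.33 and 0.93). Ifit1 (1.52 and 1.19), Rtp4 (0.91 and 0.99), Ifit3 (1.22 and 0.76), Irf7 (0.60 and 0.68) and Isg20 also passed. Zbp1, a nucleic acid sensor outside the list, was at 120 and 119 against 52.0 and 63.5 CPM (1.19 and 0.90). Isg15 was highest in cells with 4 or more Gzmk counts, 599 and 334 CPM, against 175 and 192 CPM in cells with 1. The direction did not hold for Klrg1 cells of the minus library, where Isg15 was -0.27 and Ifit3 -1.04 in 29 cells. With either Gzmk or Klrg1 but Pdcd1 at 0 they were -0.26 and -0.36 in 69 cells of that library.

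**Figure D2:**
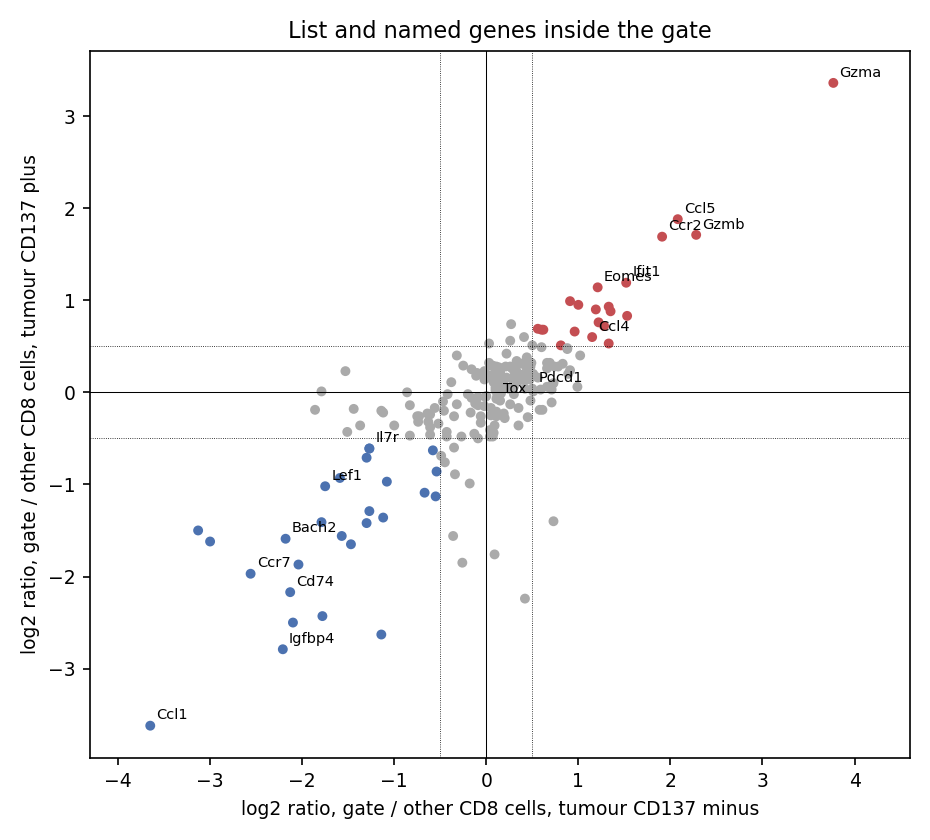
Log2 ratio of gate cells to other tumour CD8 cells for the measured list and named genes, in the minus library (x axis) and the plus library (y axis). Each point is a gene, red and blue points passed 0.5 in both libraries (dotted lines), and genes of the gate are left out. Gzma (3.77, 3.36) stands furthest above and Ccl1 (-3.65, -3.62) furthest below, with Tox (0.11, -0.07) near 0.

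Genes of memory and stemness were mostly lower. Of 15 measured members 8 were lower and 2 higher, with a median of -1.27 and -0.61. Ccr7, the receptor for lymph node entry, was at 107 and 135 CPM inside the gate and 635 and 533 CPM outside (-2.56 and -1.97). Tcf7, the factor of stem-like CD8 cells, was at 44.2 and 51.5 against 110 and 84.7 CPM (-1.30 and -0.71), and 16.2% (10.9 to 22.9) and 13.2% (10.5 to 16.3) of gate cells had a value. Il7r, the survival receptor of memory cells, was at 68.9 and 79.4 against 167 and 121 CPM (-1.27 and -0.61). The 2 higher genes were Cxcr3 and Eomes. Eomes, a T-box factor of memory and exhausted cells, was at 68.9 and 76.5 against 29.1 and 34.1 CPM (1.21 and 1.14), and in the minus library it was -0.22 in the Klrg1 cells.

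The other tumour CD8 cells included naive-like cells, and the memory result moved with them. The naive-like reference held 431 and 526 cells, most of them outside the gate. When cells with a Ccr7 value were left out on both sides, Lef1 was -1.12 and -0.28, Tcf7 -0.76 and -0.15, Il7r -0.95 and -0.28, and Id3 -1.47 and -0.85. Lef1, Tcf7 and Il7r therefore did not pass the limit in the plus library without those cells. Leaving them out of the comparison cells alone turned Lef1 (0.20), Tcf7 (0.25) and Il7r (0.06) of the plus library, and Ccr7 by construction. Gzma (2.90 and 2.86), Gzmb (1.62 and 1.38) and Ccl5 (1.59 and 1.58) stayed higher with Ccr7 cells left out on both sides. Other calls given above or below did not pass in both libraries there, namely Ccl4 (0.56 and 0.21), Fasl (0.54 and 0.25), Itga4 (0.84 and 0.47), Entpd1 (0.57 and 0.37), S100a6 (0.60 and 0.22), Ifit3 (0.39 and 0.77) and Irf7 (0.40 and 0.86) among the higher genes. Among the lower genes S1pr1 (-0.43 and -0.36) and Satb1 (-0.28 and -1.02) did not pass either. The ribosomal share of counts also differed, with a median of 28.3% and 26.2% in gate cells and 35.3% and 28.5% in others, and its part in these ratios was not tested.

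Most measured checkpoint genes were not called against the other tumour CD8 cells, although the gate required Havcr2 at 0. Of 18 measured members 1 was higher (Entpd1) and 2 were lower (Nrn1, Spp1), with a median of 0.17 and 0.02. Over all measured genes 1.59% were higher and 3.73% lower, so the list was not below that share. In the plus library Entpd1 was -0.01 when the gate required Klrg1, and in the minus library Spp1 was 0.14 without the Havcr2 criterion. Against cells that met the other criteria but had neither Gzmk nor Klrg1, none of 18 was lower, and Entpd1 and Cd38 were higher. Pdcd1, which encodes PD-1, was at 490 and 533 CPM inside and 347 and 518 CPM outside (0.50 and 0.04, not called since both libraries had to pass). A value was found in 56.9% (48.8 to 64.7) and 56.7% (52.5 to 60.8) of gate cells and in 38.7% (35.8 to 41.6) and 55.2% (53.0 to 57.3) of other cells, so the intervals were apart in the minus library alone. The other cells held most of the naive-like reference, which lacks Pdcd1 by its definition. That reference made up 431 of 1251 CD8 cells in minus and 526 of 2747 in plus. Its part in the Pdcd1 shares and ratios was not tested. Lag3, an inhibitory receptor for MHC class II, was at 264 and 263 against 251 and 367 CPM (0.07 and -0.48). Tigit, an inhibitory receptor for CD155, was at 388 and 421 against 237 and 413 CPM (0.71 and 0.03). Tox, the factor that maintains exhaustion, was at 142 and 184 against 131 and 193 CPM (0.11 and -0.07). Values of Pdcd1, Lag3 and Tigit together were found in 35.0% (27.6 to 42.9) and 24.5% (21.0 to 28.2) of gate cells.

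The rest of the lists moved little between gate and other cells. None of the measured genes of heat shock, the cell cycle, glycolysis, the T cell receptor complex, costimulation or the immediate early response passed 0.5 in both libraries in either direction. Of 18 measured genes of NF-kB and survival 1 was lower (Birc2), and of 5 measured genes in the list of lectin receptors and their adaptors 1 was lower, Fcer1g, which encodes a signalling adaptor and no lectin. Of 17 terminal effector genes S100a6, Itga4 and Gzma were higher and S1pr1 was lower, with a median of 0.40 and 0.17. Among the genes furthest below 0 outside the lists were Igfbp7 (-2.10 and -2.50), Sh3bp5 (-2.04 and -1.87), Nsg2 (-1.78 and -2.43), Rflnb (-3.0 and -1.62), Ramp1 (-1.57 and -1.56), Tnfsf8 (-3.13 and -1.5) and Il6ra (-1.47 and -1.65). Tnfsf8 encodes the CD30 ligand, and Il6ra the receptor chain for interleukin 6. Phf11c (1.35 and 0.88) and Wdr95 (1.53 and 0.83) were among those furthest above.

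The cells that met every other criterion but had Havcr2 were the nearest population, 37 in the minus and 84 in the plus library. Against them 17 of 5327 measured genes (0.319%) were higher inside the gate by a log2 ratio of 1 in both libraries, and 152 (2.85%) were lower. The checkpoint list had 3 of 18 members lower (Lag3, Nrn1, Spp1) and none higher, with a median of -0.62 and -0.48 beside -0.25 and -0.24 over all genes. Lag3 was 1.07 and 1.15 below them on the log2 scale (-1.07 and -1.15), and Prf1 was lower as well (-2.36 and -1.42). Higher inside the gate were Klf2 (1.98 and 1.12), a factor that keeps T cells circulating, Klf3 (1.06 and 1.01) and Il7r (1.33 and 1.51). Gzma (0.42 and 0.50), Gzmb (-0.34 and 0.22) and Ccl5 (0.44 and 0.65) were not called. Of 11 measured interferon response genes none was called in either direction, with a median of 0.75 and -0.27. The Havcr2 cells had more genes per cell, with medians of 2068 and 1734 against 1539 and 1228, and the part of this in the lower values was not tested.

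Cells inside the gate were not alike. Klrg1 cells, with or without Gzmk, were compared with Gzmk alone cells in 29 against 131 cells of the minus and 68 against 500 of the plus library. By a log2 ratio of 1 in both libraries 46 of 4896 genes (0.940%) were higher in Klrg1 cells and 76 (1.55%) were lower. Of 17 measured terminal effector genes 4 were higher (Gzma, Zeb2, Cx3cr1, Klf2) and none lower. Of 19 measured checkpoint genes 5 were lower (Pdcd1, Lag3, Tigit, Tox, Rgs16) and 1 was higher (Nr4a1). The list medians were 0.76 and 0.57 for terminal effector genes and -0.93 and -0.79 for checkpoint genes, beside -0.01 and -0.11 over all genes.

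Gzma was lower in Gzmk alone cells than in both kinds with Klrg1. It was at 250 and 492 CPM in Gzmk alone cells, 3855 and 2942 CPM in cells with both genes and 5723 and 2894 CPM in Klrg1 alone cells. A value was found in 18.3% (12.1 to 26.0) and 18.0% (14.7 to 21.7) of Gzmk alone cells and in 72.4% (52.8 to 87.3) and 61.8% (49.2 to 73.3) of Klrg1 cells. The intervals did not overlap in either library. Gzmb was at 286 and 504 CPM in Gzmk alone cells and 960 and 1171 CPM in Klrg1 cells (1.74 and 1.21). Ccl5 was at 9391 and 14446 against 27892 and 30847 CPM (1.57 and 1.09).

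S1pr5, the sphingosine receptor by which terminal effectors leave tissue, was found in none of 131 and 8 of 500 Gzmk alone cells but in 6 of 29 and 10 of 68 Klrg1 cells. These shares were 20.7% (7.99 to 39.7) and 14.7% (7.28 to 25.4) of Klrg1 cells, against 0% (0 to 2.78) and 1.60% (0.693 to 3.13). The naive-like reference had 0.232% and 1.33%. Zeb2, the factor that represses memory fate, was at 4.74 and 26.1 CPM in Gzmk alone cells and 29.3 and 66.2 CPM in Klrg1 cells (2.40 and 1.31). In the minus library 1 corrected count was worth 1.58 CPM in Gzmk alone cells and 7.33 CPM in Klrg1 cells. The minus ratio of Zeb2 thus rested on few counts.

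Pdcd1 had the opposite order. It was at 572 and 583 CPM in Gzmk alone cells and 110 and 157 CPM in Klrg1 cells (-2.37 and -1.88). A value was found in 65.6% (56.9 to 73.7) and 60.6% (56.2 to 64.9) of Gzmk alone cells and in 17.2% (5.85 to 35.8) and 27.9% (17.7 to 40.1) of Klrg1 cells. Lag3 (-1.77 and -2.20), Tigit (-1.58 and -1.38), Tox (-1.86 and -1.78) and Rgs16 (-2.39 and -1.15), a regulator of G protein signals, were lower too. Tnfrsf9 was at 52.1 and 278 CPM in Gzmk alone cells and 22.0 and 45.5 CPM in Klrg1 cells. In the plus library 35.2% (31.0 to 39.6) of Gzmk alone cells and 5.88% (1.63 to 14.4) of Klrg1 cells had a Tnfrsf9 value. The naive-like reference of that library had 15.2% (12.2 to 18.6). Among all gate cells, those with Gzma had a Pdcd1 value in 28.9% (16.4 to 44.3) and 34.1% (26.1 to 42.8) and those without Gzma in 67.8% (58.5 to 76.2) and 63.5% (58.8 to 68.1).

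**Figure D3:**
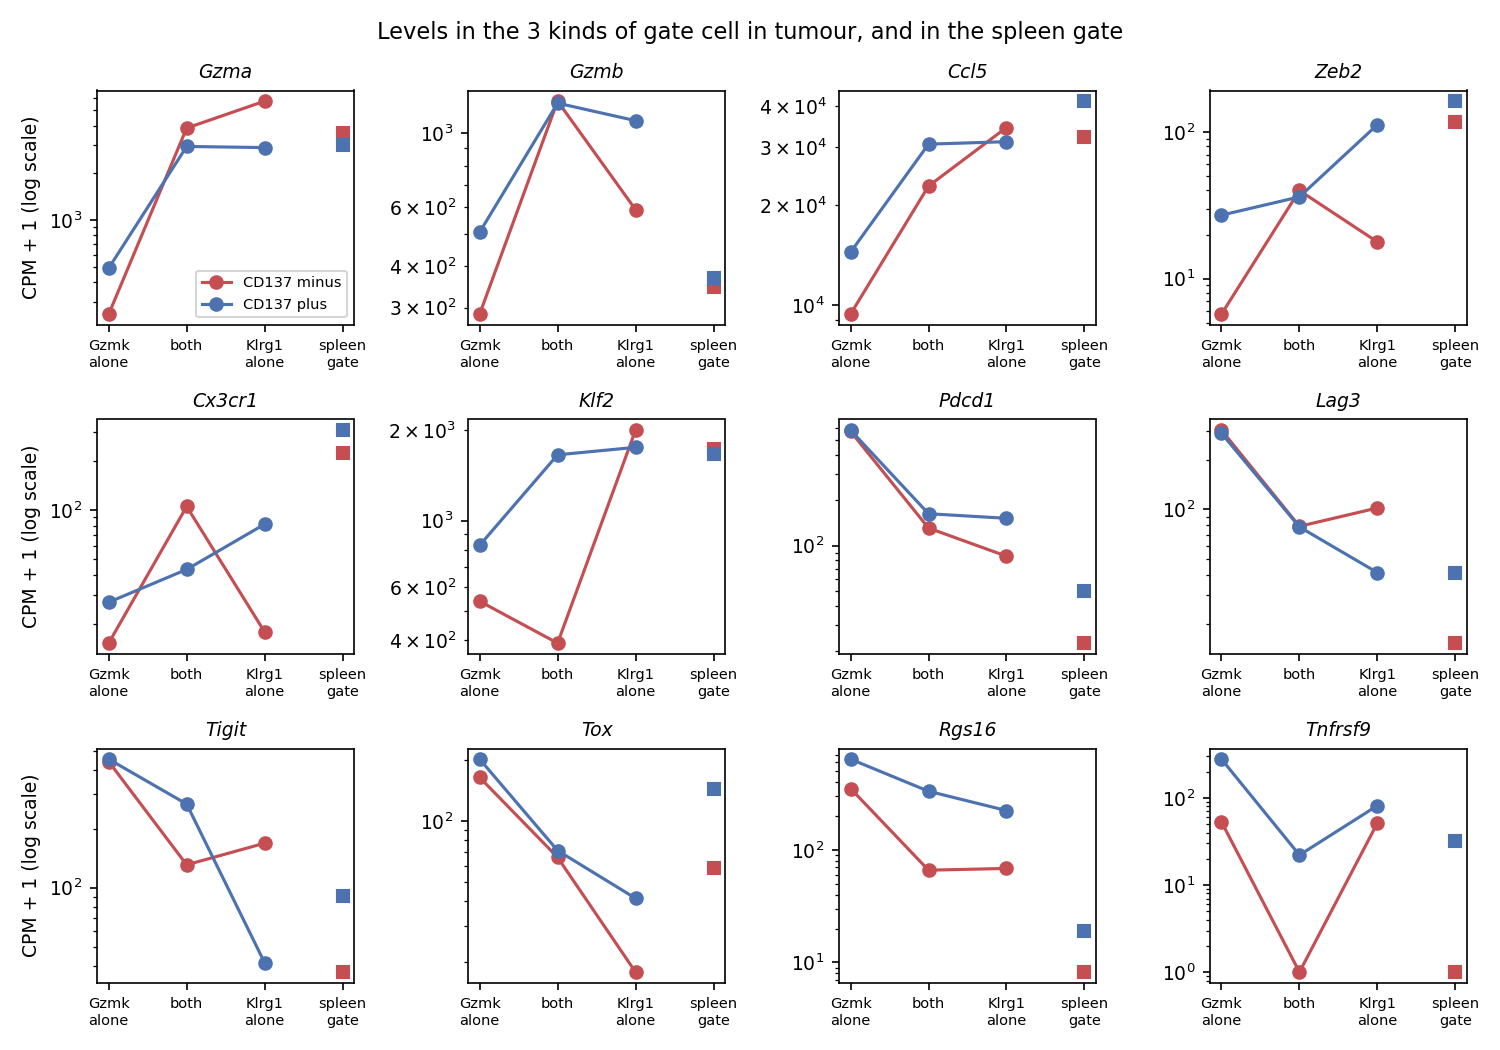
Levels of 12 genes (CPM plus 1, log axes that differ between panels) in tumour gate cells with Gzmk alone, both genes or Klrg1 alone (circles joined by lines) and in all cells of the spleen gate (squares). Red is CD137 minus and blue CD137 plus, and each point is the sum over cells of 1 library. Gzma is lowest and Pdcd1 and Lag3 highest in Gzmk alone cells in both libraries.

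Markers of natural killer cells summed to 220 and 360 CPM in Klrg1 cells and 177 and 221 CPM in Gzmk alone cells. Of 6 such genes held by the table, 5 had a value in minus and 6 in plus Klrg1 cells, with Klra8 at 0 in the minus library. Klrb1c, which encodes NK1.1, was at 14.7 and 41.4 CPM in Klrg1 cells and 1.58 and 0.545 CPM in Gzmk alone cells. Cd3e was at 1546 and 1527 CPM in Klrg1 cells, close to the 1763 and 1702 CPM of Gzmk alone cells, and Cd8b1 at 2030 and 1631 CPM. The part of natural killer cells in the Klrg1 values was not tested. Among markers of other lineages, Tcrg-C2, a gamma chain constant segment, was at 23.4 and 54.9 CPM in the gate and 15.5 and 33.6 CPM in other cells (0.56 and 0.69), and its minus to plus ratio in the gate was -1.20. With Ccr7 cells left out on both sides it was -0.43 and 0.21. Trdc, the delta chain constant segment, was at 1.30 and 1.93 CPM in the gate, and Tcrg-C1 at 0 in its minus library. The part of gamma delta cells was not tested. Cd74 was lower in the gate (49.4 and 66.9 against 219 and 304 CPM), and the 7 B cell markers in the table summed to 140 and 153 CPM against 414 and 515 CPM, with Ms4a1 at 0 in both populations and Cd79a at 0 in both of the minus library. The gate of the minus library also had H2-Ab1 at 0. Macrophage markers summed to 139 and 174 CPM in the gate and 186 and 224 CPM outside, and melanoma markers to 9.10 and 30.8 against 40.3 and 38.3 CPM, with Tyrp1 and Sox10 at 0 in the gate. The macrophage marker C1qa was at 0 in the minus gate and Cd14 in the plus gate.

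The size of the Gzmk value graded the same genes among Gzmk alone cells. Cells with 1, 2 to 3 and 4 or more Gzmk counts numbered 57, 32 and 42 in the minus and 174, 201 and 125 in the plus library. Gzma was at 64.4, 131 and 599 CPM in the minus and 247, 344 and 1085 CPM in the plus library. Ccl5 went from 5981 to 8624 to 14732 CPM and from 9203 to 14156 to 22505 CPM. Ccr7 went the other way, with 190, 111 and 29.9 CPM and 217, 132 and 44.2 CPM. Pdcd1 showed no common order, at 544, 588 and 599 CPM in the minus and 609, 627 and 475 CPM in the plus library. Just outside the gate, cells with neither gene had Gzma at 21.1 and 59.3 CPM, whereas cells with a Gzmk and Klrg1 sum of 1 had 143 and 379 CPM and those with 2 or more 1629 and 981 CPM.

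**Figure D4:**
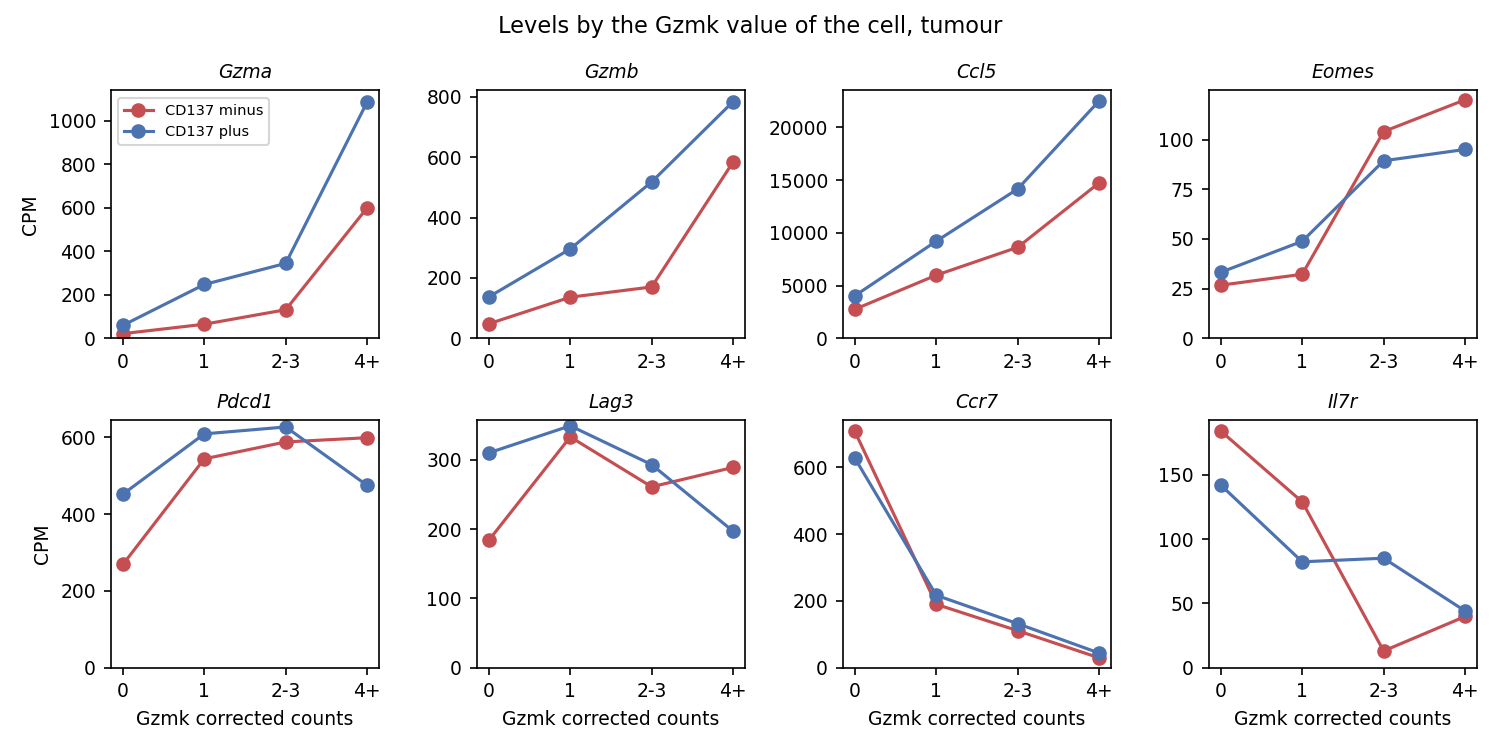
Levels of 8 genes (CPM, linear axes from 0) in tumour CD8 cells that meet the other criteria, by their Gzmk value in corrected counts, for cells without Klrg1. Red is CD137 minus and blue CD137 plus, with 1 library each. Gzma, Gzmb and Ccl5 are higher and Ccr7 lower with more Gzmk in both libraries, and Pdcd1 has no common order.

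The same gate in spleen gave 37 and 46 cells. By a log2 ratio of 1 in both fractions 312 of 4890 genes (6.38%) were higher in the tumour gate and 197 (4.03%) lower, with a median of -0.04 and 0.17. Of 14 measured checkpoint genes 8 were higher in tumour and none lower, with a median of 3.09 and 1.91. Pdcd1 was at 490 and 533 CPM in the tumour gate and 21.6 and 49.2 CPM in the spleen gate (4.44 and 3.41). A Pdcd1 value was found in 2 of 37 and 7 of 46 spleen gate cells. There 1 corrected count was worth 7.20 and 4.47 CPM, so ratios to low spleen levels rested on few counts. Rgs16 (5.19 and 4.98) and the T cell receptor-induced receptor gene Nr4a2 (5.17 and 6.26) were among the genes furthest above, with Cebpb, Gadd45b and Coq10b. All 14 measured immediate early genes were higher in tumour, with a median of 1.81 and 2.23, and so were 4 of 9 heat shock genes. Tissue digestion and handling differ between the organs in ways the labels do not give, and their part was not tested.

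Of 18 measured terminal effector genes 7 were lower in the tumour gate and none higher, with a median of -1.23 and -0.92. S1pr5 was at 10.4 and 10.6 CPM in tumour and 187 and 143 CPM in spleen (-4.05 and -3.64). Cx3cr1, the fractalkine receptor of circulating effectors, was at 23.4 and 29.8 against 223 and 308 CPM (-3.20 and -3.33). S1pr1, the receptor for egress (-2.75 and -2.75), Zeb2 (-3.52 and -2.35), Klrb1c, Ripor2 and Tor4a were also lower. Gzma was at 3570 and 3026 CPM in the spleen gate, near the 4668 and 2922 CPM of the tumour Klrg1 cells. The spleen gate held a larger share of Klrg1 cells, as given above, so its values are not those of one kind of cell.

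Inside the tumour gate the minus library was then compared with the plus library. Of 5237 measured genes 402 (7.68%) were higher and 487 (9.30%) lower in minus by a log2 ratio of 0.5, with a median of -0.01. In other tumour CD8 cells 92 of 5431 (1.69%) were higher and 432 (7.95%) lower, with a median of -0.15. One corrected count in the 160 minus cells was worth 1.30 CPM, so a gene near the filter rested on few counts. Among the 1369 genes of 100 CPM or more in the gate 54 (3.94%) were higher and 43 (3.14%) lower, and in other CD8 cells 36 of 1314 (2.74%) and 88 (6.70%). The libraries also differed in total per cell, and thinning all cells to 2900 gave 667 higher genes in place of 402.

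Of 9 measured cytokine and chemokine genes 4 were lower in the minus gate (Ifng, Tnf, Ccl3, Ccl4) and 1 was higher (Penk), with a median of -0.37. Ifng was at 220 CPM in minus and 436 CPM in plus gate cells (-0.99), and 38.7% against 44.7% of cells had a value. In other CD8 cells its ratio was -0.86. Ccl4 was at 604 and 1014 CPM (-0.75, and -1.29 in other cells). Ccl3, an inflammatory chemokine like Ccl4, was at 75.4 and 223 CPM (-1.55, and -1.44 in other cells), and its ratio was -0.61 after thinning. Each of these 3 ratios was below -0.5 in both populations, and Tnf, at 45.5 and 68.4 CPM (-0.58), was -0.04 in the other cells.

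Granule genes were closer in the gate as a whole. Of 13 measured members 1 was lower, Gzmb at 405 and 582 CPM (-0.52), and the list median was -0.06. Among its Gzmk alone cells 3 of 13 were lower (Gzma, Gzmb, Gzmm), with a median of -0.28. Over all genes measured in Gzmk alone cells 587 of 5302 were lower and 445 higher, with a median of -0.02. In other CD8 cells 6 of 13 were lower with a median of -0.39, among them Gzmb (-1.09), Prf1, Nkg7 and Cst7. Gzmb lay at the limit, and its ratio ranged from -0.82 to -0.22 over the alternatives. Gzma was 0.41 in the whole gate but -0.98 in Gzmk alone cells (250 and 492 CPM). The share of Gzmk alone cells with a Gzma value was near equal, 24 of 131 (18.3%) and 90 of 500 (18.0%). In Klrg1 cells Gzma was at 4668 and 2922 CPM, and these cells made up 18.1% of the minus and 12% of the plus gate.

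Checkpoint genes in the gate were near equal in the 2 fractions for the receptors. Pdcd1 was at 490 and 533 CPM (-0.12), Lag3 at 264 and 263 CPM (0.01), Tigit at 388 and 421 CPM (-0.12) and Cxcr6 at 317 and 318 CPM (0.00). In other CD8 cells the same genes were at -0.58, -0.54, -0.80 and -0.51. The make-up of those cells differed between the libraries. The naive-like reference, which lacks Pdcd1 by its definition and lies mostly outside the gate, held 431 of 1251 CD8 cells in minus. In plus it held 526 of 2747. The part of this in the ratios was not tested. Over the 16 members measured in both populations, 3 were lower in the gate with a median of -0.06 and 9 were lower in other cells with a median of -0.51. Whether the populations differ was not tested. Rgs16, at 299 and 596 CPM, was lower in both (-0.99 and -0.70), and Nr4a1, an early gene of T cell receptor signals, was at 322 and 538 CPM in the gate (-0.74). All 16 immediate early genes had values at or below 0 in the gate, 3 of them past -0.5 (Jun, Nr4a1, Nr4a3), with a median of -0.42. Among Gzmk alone cells 8 of 16 were past -0.5, with a median of -0.46, beside 587 of 5302 over all genes. In other cells the median of the list was 0.03.

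**Figure D5:**
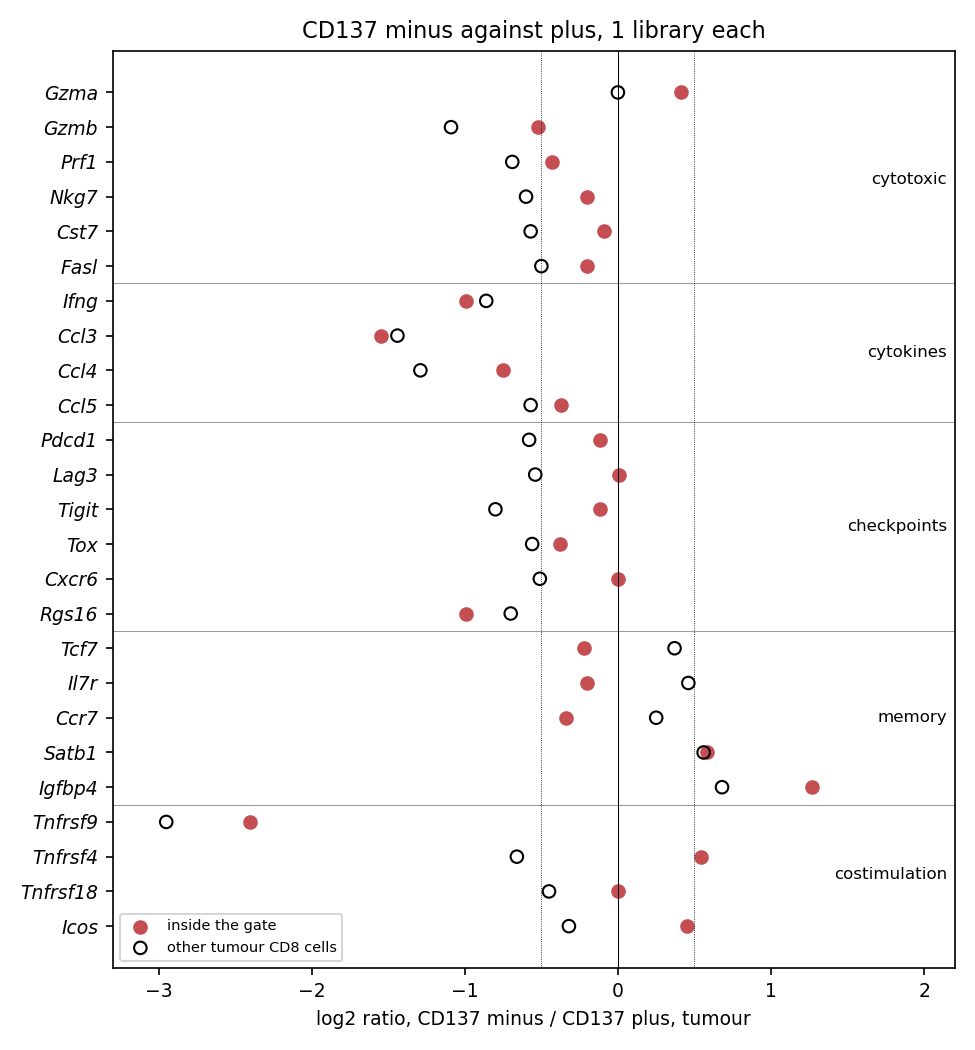
Log2 ratio of CD137 minus to CD137 plus for selected list genes inside the gate (filled) and in other tumour CD8 cells (open), with dotted lines at 0.5 on either side of 0. Each point compares 1 library with 1 library. Pdcd1, Lag3, Tigit and Cxcr6 lie near 0 inside the gate and at -0.80 to -0.51 in other cells, while Ifng, Ccl3 and Ccl4 are below -0.5 in both.

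Of 14 measured memory genes 3 were higher in the minus gate (Slamf6, Satb1, Igfbp4) and none lower, with a median of -0.09. Ccr7 was at 107 and 135 CPM (-0.34) and Tcf7 at 44.2 and 51.5 CPM (-0.22), against 0.25 and 0.37 in other cells. Satb1, a chromatin organiser of naive cells, was at 49.4 and 32.7 CPM (0.58). Of the lectin receptors Klrc1, which encodes NKG2A, was at 113 and 229 CPM (-1.01, and -1.13 in other cells). Zeb2 was at 9.10 and 30.8 CPM (-1.66, against 0.11 in other cells) with a value in 4.38% and 8.98% of cells. Of 12 measured glycolysis genes 4 were lower in the minus gate, with a median of -0.12, and of 11 heat shock genes 2 were lower, with a median of -0.27. None of 16 homing receptors passed the limit in either direction.

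The genes furthest from 0 in the minus and plus gate were mostly sparse. Penk, which encodes the opioid precursor proenkephalin, was at 91.0 and 19.3 CPM (2.18), with a value in 6.87% of minus and 4.40% of plus gate cells. In the minus library it stood at 313 CPM in the 32 cells with 2 to 3 Gzmk counts and at 68.0 and 9.98 CPM in the classes below and above. Its ratio was -0.47 in other CD8 cells and 0.24 in the gate that also required Pdcd1 at 0. Il2ra, the alpha chain of the IL-2 receptor, was at 29.9 and 8.18 CPM (1.75) and stood at 252 CPM in the 13 Klrg1 alone cells of the minus library. Among Gzmk alone cells its ratio was -0.14. Spp1, which encodes osteopontin, was at 120 and 45.7 CPM (1.37) in 13.8% and 6.87% of cells, and was -1.80 where Pdcd1 also had to be 0. Further above were Dbp, Lysmd2, B4galt5, Bmyc, Hist1h4c, Smim19, Ifit2, Sema4c and Tbc1d22a, with log2 ratios between 1.29 and 1.69. After Tnfrsf9 the lowest were Hsd17b4 (-2.15), Tfdp1, Gsr, Sphk2, Rhob, Zeb2, Prpf3, Tars, Ccl3, Crtc2 and Dmxl1 (-1.54). Rhob, a small GTPase, was at 26.0 and 86.6 CPM (-1.70), against -0.03 in other cells.

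T cell receptor beta segments gave a view of the repertoire that the gate did not use. Over both libraries the segments found in most gate cells were Trbv13-2, Trbv13-3, Trbv13-1, Trbv29 and Trbv12-2. The order differed by library, and Trbv3 was found in 26 of 160 minus gate cells, 16.2% (10.9 to 22.9), more than Trbv29 (24), Trbv13-1 (20) or Trbv12-2 (16). In the plus library Trbv3 was found in 8.10% (5.99 to 10.7) of gate cells, and in other CD8 cells in 9.44% (7.77 to 11.3) and 5.37% (4.46 to 6.40). Trbv13-3 had a value in 18.1% (12.5 to 25) and 12% (9.42 to 14.9) of gate cells and in 8.80% (7.19 to 10.6) and 4.50% (3.67 to 5.45) of other tumour CD8 cells, and the intervals did not overlap in either library. In spleen the shares inside the gate were 8.11% (1.70 to 21.9) and 13.0% (4.94 to 26.3). Trbv29 was found in 37.9% (20.7 to 57.7) of Klrg1 cells of the minus library, 11 of 29, and in 9.92% (5.39 to 16.4) of its Gzmk alone cells, whereas in the plus library these shares were 14.7% (7.28 to 25.4) and 11.4% (8.75 to 14.5). Trbv13-2 was at 20.6% and 19.4% of gate cells and 14.1% and 16.2% of others. Since 44.4% and 43.1% of gate cells had values of 2 or more beta segments, against 33.3% and 33.9% of other cells, a value does not name the receptor of a cell, and near-identical Trbv13 members may share reads.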

How the data were processed

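The 4 libraries of 5' single-cell RNA were processed with Cell Ranger 3.0.2 and Seurat 3.0 on mm10, per the submitters' processing notes. Cell filters, parameters and normalization were not given in the sources used here. One table was deposited by the authors, with 1 row per cell, of 6965 cells and 12763 genes on a natural log scale. Every value is ln(1 + n) with n whole within a relative error of 1e-12, and n is called a corrected count because its total per cell is narrow within a library. This is read from the values, no count model was used, and raw depth is not known. Doublets were not called and may be among the cells.

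Corrected counts were summed over cells of a population and scaled to CPM with pseudocount 1. A gene was called at a log2 ratio of 0.5 in size, or of 1 for thin populations (Havcr2 cells, Klrg1 cells, spleen gate). Every contrast but minus against plus had to pass in both fractions. Scripts were tested on simulated data. Named genes were the 12 furthest on each side for gate against other cells and minus against plus, and 6 on each side for tumour against spleen, without receptor segment, immunoglobulin, mitochondrial, ribosomal protein, haemoglobin, sex-linked, unnamed and gate genes. Other genes come from 25 lists. Some list genes are not reported here, and list counts, the naive-like reference and the alternatives without naive-like cells were computed without them. The rule, the members and the lists were chosen with earlier results of these data known. The 5 beta segments are those found in most gate cells over both libraries. Trbv3 and the share of Trbv29 in Klrg1 cells were singled out after their values were seen. Locus positions are from GENCODE. Alternatives varied the gate, thinning, pseudocount, filter, summing, centring and comparison cells, 5 of them added after values were seen. Versions were matplotlib 3.10.9, pandas 2.3.3, scipy 1.17.1, numpy 2.4.6 and Python 3.11.15.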

Additional observations from a re-analysis of the deposited data

Results flagged for a closer look

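Sema4c and Tnfrsf4 passed the limit with opposite signs in gate cells and in other tumour CD8 cells when CD137 minus was compared with plus. Sema4c, a semaphorin, was at 22.1 CPM in minus and 8.18 CPM in plus gate cells (1.33 on the log2 scale) and at 20.7 and 30.0 CPM in other cells (-0.52). Tnfrsf4, which encodes the costimulatory receptor OX40, was at 76.7 and 52.5 CPM in the gate (0.54) and at 98.4 and 157 CPM in other cells (-0.66). Each value is from 1 library, and the difference between the populations was not tested.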

How the results depend on the processing

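Each group was 1 library, so no replicate was left out in turn. No paired analysis was possible because each group is 1 library and no result comes from a test. Depth limits genes near 20 CPM, which rest on few corrected counts in the minus gate, and the cause of the changes below was not tested beyond the fewer cells or genes that an alternative leaves.

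The gate share of CD8 cells (12.8% minus and 20.7% plus) was 7.59% and 13.6% with at least 2 counts of Gzmk or Klrg1, 2.32% and 2.48% on Klrg1 only, 15.7% and 23.7% without the Havcr2 criterion, 5.52% and 8.96% with Pdcd1 at 0 too, and 10.9% and 17.9% with none of the cycle genes. Minus was the lower in all of them. The 81 genes higher than in other cells became 122 with at least 2 counts, 290 on Klrg1, 141 with a 5 CPM filter, 133 against cells with neither gene and 46 against other cells without Ccr7. The 190 lower became 535 on Klrg1, 555 with Pdcd1 at 0, 114 with pseudocount 10, 585 with the 5 CPM filter and 305 with Ccr7 cells left out on both sides. Between minus and plus the 402 higher genes became 718 with at least 2 counts, 1655 on Klrg1, 881 with Pdcd1 at 0, 667 when thinned, 227 with pseudocount 10, 1129 with the 5 CPM filter and 54 with a 100 CPM filter, and the 487 lower became 1224 on Klrg1, 851 with Pdcd1 at 0, 253 with pseudocount 10, 1322 with the 5 CPM filter and 43 with the 100 CPM filter.

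Of 1534 log2 values of single genes against other cells 24 changed sign, and of 732 between minus and plus 15 did. On Klrg1 only, against other cells, Eomes (-0.22), Ifit3 (-1.04), Isg15 (-0.27) and Tcrg-C2 (-0.17) turned in minus, and Entpd1 (-0.01), Il7r (0.09), Isg20 (-0.10) and S1pr1 (0.31) in plus. Between minus and plus Bmyc, Dbp and Smim19 (each -0.16), Hist1h4c (-4.69), Igfbp4 (-4.13), Sema4c (-2.36), Spp1 (-0.85) and Tuba1b (0.17) turned. With Pdcd1 at 0, Ifit3 (-0.36), Isg15 (-0.26) and Tcrg-C2 (-0.81) turned in minus and Il7r (0.11), S1pr1 (0.04) and Tcrg-C2 (-0.55) in plus, and between minus and plus Hist1h4c (-0.28), Hspa1a (0.51), Hspa1b (0.06), Mcm5 (0.41), Slamf6 (-0.46) and Spp1 (-1.80). Without the Havcr2 criterion Ccl3 (0.45) and Spp1 (0.14) turned in minus, against cells with neither gene Ccl3 (0.14) in minus, and in Gzmk alone cells Il2ra (-0.14) between minus and plus. Against other cells without Ccr7, Ccr7 (6.75 and 7.09) turned by construction, Il7r (0.06), Lef1 (0.20) and Tcf7 (0.25) turned in plus, and Tcrg-C2 (-0.51) in minus. With Ccr7 cells left out on both sides Tcrg-C2 (-0.43) turned in minus. The 100 CPM filter, the Gzmk alone gate, the cells with neither gene and both versions without Ccr7 were chosen after seeing the data.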
